A study of Mus musculus with 16 samples.

Results

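RNA from immortalised mouse embryonic fibroblasts (MEFs) was examined in 3 MEF-1 clonal lines, MEF1-1, MEF1-4 and MEF1-5, whose DNA gave fewer reads over chromosome 18 in the targeted bisulfite libraries of the study. They were compared with the remaining 4 MEF-1 clonal lines, MEF1-2, MEF1-3, MEF1-6 and MEF1-7, out of 16 lines in all. MEF-1 and MEF-2 were derived from sibling C57BL/6J embryos at E13.5, MEF-1 male and MEF-2 female, and became immortal by serial passage through crisis. Each clonal line grew from 1 sorted cell and gave 1 library of total RNA depleted of ribosomal RNA. No line was treated, and the MEF-1 lines of both groups also share a lower DNA coverage of chromosome 12 and a higher one of chromosome 19 relative to MEF-2, as described in the study. The lines were chosen by their DNA, so the RNA had no part in the choice. A clone stands for 1 cell of its parental line, and anything else inherited by that cell cannot be told apart from its copies of chromosome 18.

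Most genes are transcribed from both copies of an autosome. When a cell loses a copy, the RNA of the genes on it usually falls, by an amount that depends on how far transcription of the remaining copy or the stability of the RNA makes up for it. Genes elsewhere keep their copies, but may respond where a gene on the lost copy regulates them. Mouse chromosome 18 carries, among others, Smad2 and Smad4, which carry transforming growth factor beta (TGF-beta) signals to the nucleus, Apc, which holds down Wnt signalling, Pdgfrb, a growth factor receptor of fibroblasts, and the clustered protocadherins, cell surface adhesion molecules that are switched on individually from arrays of promoters.

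The values are log2 levels made with the regularised log (rlog) transformation, which divides by library size and pulls the values of a gene towards its mean, more so at low levels. Protein-coding genes with a mean above 0 over the 16 lines were tested, 15285 in all, of which 416 lie on chromosome 18. The level given to genes without reads was −2.2848 to −2.2814 in the 3 low-coverage lines and −2.2824 to −2.2803 in the other 4. The fibroblast markers Col1a1 (20.8 to 21.41 in the low-coverage lines, 20.73 to 21.3 in the others) and Vim (17.97 to 18.34 and 17.98 to 18.46) were high in all 7 lines, while Thy1, another fibroblast marker, was low in both groups (2.72 to 3.43 and 2.83 to 2.99). Adgre1 of macrophages, Krt5 of epithelia, Myod1 and Myog of muscle and Sox10 of glia were at or below 0 in all 7 lines. Of the 9 fibroblast and 11 other marker genes tested, 0 passed the test between the groups with limma (1 at an unadjusted p under 0.05), although Lum did not overlap (10.9 to 11.88 against 9.1 to 10.59) and Epcam reached 4.45 in a low-coverage line against 3.05 at most in the others. The part of these levels in the results was not tested.

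The RNA of chromosome 18 was lower as a whole in the lines with low DNA coverage. For each line the median over the 367 chromosome 18 genes above the 40th percentile of expression (a mean of 3.75) was found, each value given relative to the average of the 7 MEF-1 clonal lines. This median was −0.342 in MEF1-1, −0.361 in MEF1-4 and −0.334 in MEF1-5. It was 0.226 in MEF1-2, 0.222 in MEF1-3, 0.268 in MEF1-6 and 0.281 in MEF1-7. The groups did not overlap, and the gap between their nearest lines was 0.556. The means were −0.346 ± 0.0139 (SD, n = 3) and 0.249 ± 0.0298 (SD, n = 4), a difference of −0.595 on the log2 scale, or 66.2% of the level of the other lines. The two-sided exact permutation test over the 35 ways to split 7 lines gave p = 0.0571, the smallest it can give, and an adjusted p of 0.5714 over 20 chromosomes by the Benjamini-Hochberg method, so this design cannot pass a threshold of 0.05 by that test. In RNA from whole cultures, fewer cells with the RNA and less RNA per cell cannot be told apart.

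**Figure D1:**
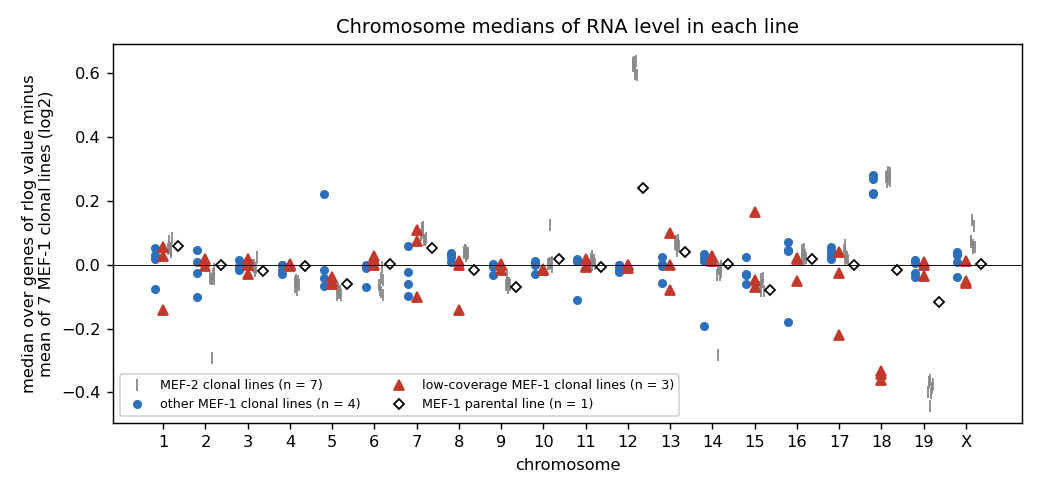
Median over the genes of each chromosome of the rlog value relative to the average of the 7 MEF-1 clonal lines (log2), for each low-coverage line (triangles, n = 3), other MEF-1 clonal line (circles, n = 4), MEF-2 clonal line (ticks, n = 7) and the MEF-1 parental line (diamond). On chromosome 18 the low-coverage lines lie between −0.361 and −0.334 and the other MEF-1 clonal lines between 0.222 and 0.281.

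The other 4 MEF-1 clonal lines lay close to the MEF-2 clonal lines on chromosome 18, which ranged from 0.2605 to 0.2918, with a median 0.027 above their mean (no test). The parental MEF-1 line stood at −0.015, 44.4% of the way from the mean of the other lines to that of the low-coverage lines. On the other 19 chromosomes the largest difference between the groups was 0.106 in size, on chromosome 17, where MEF1-1 alone stood at −0.221. The groups did not overlap on 1 of these 19, chromosome 6, with a difference of 0.0367 (exact permutation p = 0.0571, adjusted p = 0.5714), and they overlapped there too when the lines were not centred. MEF1-1 also stood apart on chromosome 8, at −0.143, and MEF1-5 on chromosome 15, at 0.166, so the low-coverage lines differed among themselves elsewhere but not on chromosome 18.

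Gene by gene, 173 of the 416 chromosome 18 genes tested were lower in the low-coverage lines at an adjusted p under 0.05 with limma, or 41.6%, and 0 were higher (6 at an unadjusted p under 0.05). Over all genes tested, 1.67% were called lower and 0.759% higher. Of the chromosome 18 genes, 277 (66.6%) were lower in every low-coverage line than in every other line, against 7.49% of all genes tested. The count of calls rested on the number of lines: it was 56 without MEF1-4 and 112 without MEF1-3, and still all were lower.

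The median fall was similar at every level of expression above the 40th percentile, while single genes spread more widely at the lower of these levels. The median difference of the 367 genes was −0.58, with the middle 50% of genes between −0.72 and −0.45, and 346 of them (94.3%) were below 0. The 12756 genes of other chromosomes at these levels had a median of 0.01, with quartiles of −0.11 and 0.13, and 46.7% were below 0. Median differences on chromosome 18 were −0.60 between the 40th and 60th percentiles (131 genes), −0.58 between the 60th and 80th (113 genes) and −0.58 above (123 genes). The middle 50% of genes lay between −0.882 and −0.281 at the lowest of these levels and between −0.657 and −0.485 at the highest. The share called lower rose over the same steps from 12.2% to 63.7% and 68.3%, as the SD between lines of a group became smaller (a median of 0.245 in the low-coverage lines at the lowest of these levels, and 0.091 at the highest). Below the 40th percentile, where rlog pulls values together most, the 49 genes had a median of −0.23 and 1 was called.

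**Figure D2:**
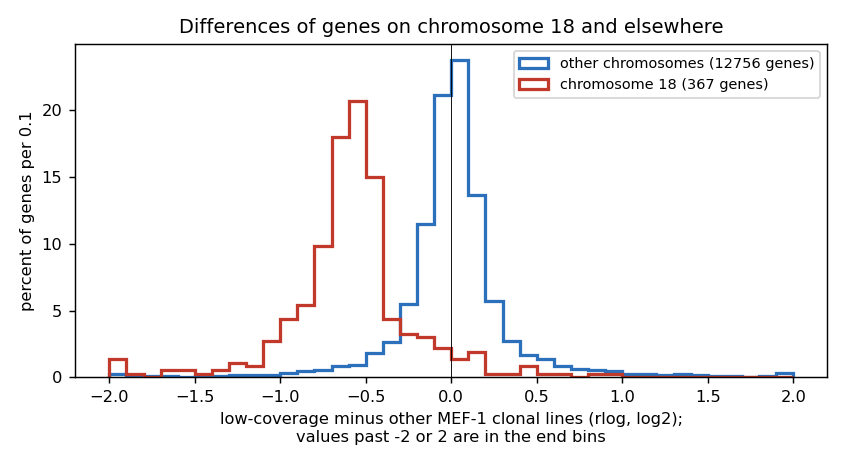
Percent of genes per 0.1 step of the difference between low-coverage and other MEF-1 clonal lines (rlog, log2), for 367 genes of chromosome 18 and 12756 genes of other chromosomes above the 40th percentile of expression, with values past −2 or 2 in the end bins. Chromosome 18 genes centre on −0.58 and the others on 0.01.

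The lower level ran along the whole chromosome. In each of 10 windows of 10 Mb the median difference was below 0, from −0.632 to −0.544, with 2 to 126 genes in a window. Within 0.25 of the chromosome's own median difference lay 69.5% of the 367 genes.

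The lists of chromosome 18 genes that follow are described by their counts beside the 41.6% of all 416 genes called lower, and no difference between lists was tested. Among the TGF-beta and BMP signalling genes, 3 of 7 tested were called lower, a share close to that of the chromosome. They were Smad2, Smad4 and Ldlrad4, an inhibitor of the pathway, and the median difference of the list was −0.63, against −0.57 for all 416 genes. Smad4, the partner shared by TGF-beta and BMP receptor SMADs, was 12.56, 12.71 and 12.69 in MEF1-1, MEF1-4 and MEF1-5. In MEF1-2, MEF1-3, MEF1-6 and MEF1-7 it was 13.13, 13.33, 13.36 and 13.28, with no overlap. The difference was −0.62 (SE 0.08, limma adjusted p = 0.007896), and the parental line stood between the groups, at 13.02. Smad2 differed by −0.59 (adjusted p = 0.008566) and Ldlrad4 by −0.76 (adjusted p = 0.007606). Zeb1, a repressor of epithelial genes, was 13.33 to 13.41 in the low-coverage lines and 13.59 to 13.87 in the others, and its difference of −0.39 did not pass (adjusted p = 0.05517), nor did that of Smad7, the inhibitory SMAD (−0.69, adjusted p = 0.1108).

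Of 11 receptors, ligands and feedback regulators, 3 were called lower, with 41.6% called over the chromosome (median −0.64). Pdgfrb was 14.60, 14.29 and 14.16 in MEF1-1, MEF1-4 and MEF1-5 and 15.19, 15.15, 14.97 and 15.03 in MEF1-2, MEF1-3, MEF1-6 and MEF1-7. The groups did not overlap, and the difference was −0.74 (SE 0.12, adjusted p = 0.0166). Apc was 12.83, 12.71 and 12.74 against 13.32, 13.34, 13.54 and 13.37 in the same order, a difference of −0.63 (SE 0.08, adjusted p = 0.006823). Socs6, a suppressor of cytokine signalling, fell by 0.85 on the log2 scale (adjusted p = 0.006823). Nr3c1, the glucocorticoid receptor, differed by −0.41 without passing (adjusted p = 0.1819).

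Genes of chromatin and transcription were called lower in 9 of 15 cases, with 41.6% over the chromosome (median −0.57). Tcf4, a basic helix-loop-helix transcription factor, was 14.93, 14.61 and 14.89 in the low-coverage lines and 15.43, 15.57, 15.42 and 15.59 in the others, with no overlap and a difference of −0.69 (SE 0.10, adjusted p = 0.01342). The methyl-CpG binding protein Mbd1 fell by 0.58 on the log2 scale (adjusted p = 0.007019), Cxxc1, which binds unmethylated CpGs, by 0.57 (adjusted p = 0.006823), and the histone deacetylase Hdac3 by 0.62 (adjusted p = 0.0108). Mbd2 differed by −0.40 (adjusted p = 0.05097). Setbp1, at 14.05 to 14.43 against 14.55 to 14.77, did not overlap but did not pass (−0.47, adjusted p = 0.07428).

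The 10 genes of mitochondrial proteins held 7 that were called lower (median −0.56), and the 12 of translation and RNA processing held 7 (median −0.53), with 41.6% called over the chromosome. Atp5a1, a subunit of ATP synthase, was 14.54, 14.60 and 14.81 against 15.09, 15.24, 15.29 and 15.35, which do not overlap (−0.59, SE 0.10, adjusted p = 0.0219). Rps14, a protein of the small ribosomal subunit, was 15.16, 15.10 and 15.31 against 15.51, 15.82, 15.88 and 15.92, and passed narrowly (−0.59, SE 0.12, adjusted p = 0.04869). Matr3, a protein of the nuclear matrix that binds RNA, varied little within each group, at 14.08 to 14.20 against 14.55 to 14.62 (−0.47, adjusted p = 0.0108). Hspa9, the mitochondrial heat shock protein 70, overlapped between the groups and did not pass (−0.34, adjusted p = 0.2442).

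Of 7 genes of membrane traffic and sterol handling 6 were called lower, with 41.6% over the chromosome (median −0.64), among them Npc1, which exports cholesterol from lysosomes, at 12.73, 12.72 and 12.73 against 13.50, 13.44, 13.29 and 13.25 (−0.64, SE 0.08, adjusted p = 0.006972). Lman1, a cargo receptor of the secretory pathway, was not called (−0.34, adjusted p = 0.1153). Of the cytoskeleton and nuclear lamina 4 of 8 were called, with the same share over the chromosome (median −0.54), including Kif5b, a kinesin heavy chain (−0.49, adjusted p = 0.0289), Rock1, a kinase of actin contractility (−0.59, adjusted p = 0.01136), and Diaph1, a formin (−0.62, adjusted p = 0.005986).

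Of 9 genes of cell division and DNA repair 2 were called, with 41.6% called over the chromosome, and their median was −0.46 against −0.57. Cdc23, a subunit of the anaphase promoting complex, was 11.96, 12.04 and 12.15 against 12.63, 12.62, 12.72 and 12.68 (−0.61, SE 0.07, adjusted p = 0.00611). Kif20a, a mitotic kinesin, was 10.45, 11.08 and 12.02 against 11.41, 11.25, 11.68 and 11.96, so MEF1-5 stood above all 4 other lines and the difference did not pass (−0.39, adjusted p = 0.7225). Of 8 genes of the extracellular matrix and cell adhesion 2 were called, with the same 41.6% over the chromosome (median −0.72): Cdh2, N-cadherin, by −0.81 (adjusted p = 0.01907) and Ctnna1, alpha-catenin, by −0.58 (adjusted p = 0.01509). Lox, which crosslinks collagen, overlapped between the groups (−0.44, adjusted p = 0.4845). Fbn2, a microfibril protein, was 14.19 in MEF1-1 and 15.39 and 15.50 in MEF1-4 and MEF1-5 against 15.52 to 16.35, and its difference of −0.86 had a large error (SE 0.33, adjusted p = 0.2999).

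**Figure D3:**
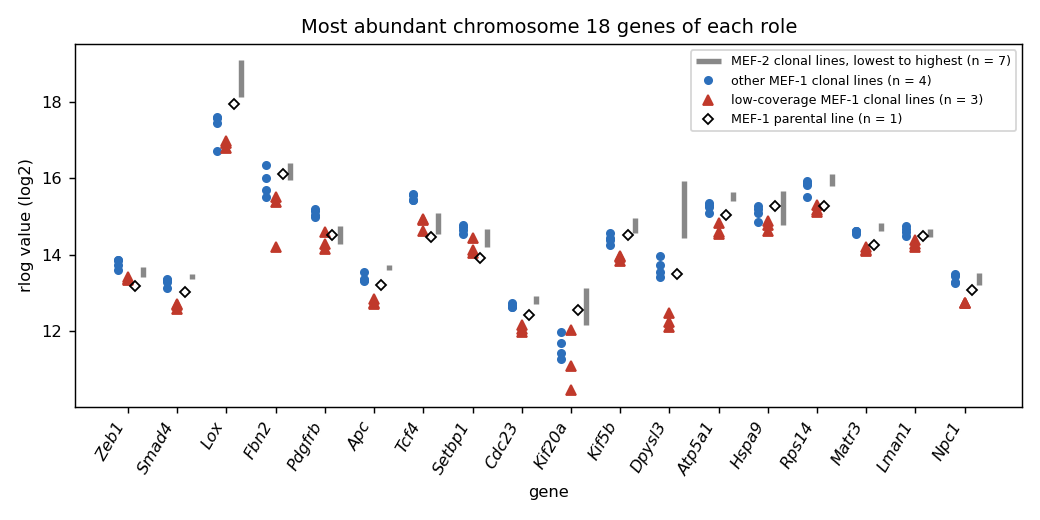
rlog values (log2) of the 2 most abundant tested genes of each chromosome 18 list, in low-coverage lines (triangles, n = 3), other MEF-1 clonal lines (circles, n = 4) and the MEF-1 parental line (diamond), with bars from the lowest to the highest MEF-2 clonal line (n = 7). Triangles lie under all circles except for Lox, Kif20a and Hspa9.

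The largest falls among the chromosome 18 genes called without overlap went well past its median. Dok6, an adaptor of receptor tyrosine kinases, was 3.90, 3.73 and 4.01 in the low-coverage lines and 8.69, 8.21, 7.27 and 9.07 in the others. The difference was −4.43 (SE 0.40, adjusted p = 0.004572). The parental line was at 6.58 and the MEF-2 clonal lines ranged from 4.06 to 6.88, so the 4 other MEF-1 clonal lines were all above MEF-2. Asxl3, a Polycomb-associated protein, was 7.27, 6.58 and 7.52 against 9.35, 8.73, 9.42 and 9.36 (−2.09, SE 0.27, adjusted p = 0.008906). Dpysl3, a cytosolic protein of cell migration, was 12.10, 12.24 and 12.47 against 13.96, 13.42, 13.54 and 13.72 (−1.39, SE 0.14, adjusted p = 0.005482). Reep2 (−1.57), a protein that shapes the endoplasmic reticulum, Greb1l (−1.16) and Dtna (−1.08), dystrobrevin alpha, also lay past −1. The MEF-2 clonal lines, at 8.56 to 9.27 for Reep2 and 14.43 to 15.92 for Dpysl3, were above both groups of MEF-1 clones for these genes.

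Clustered protocadherin genes made up 6 of the 12 largest falls among genes called without overlap. Of the 54 tested 10 were called lower and 0 higher (33 and 1 at an unadjusted p under 0.05), a smaller share than the 41.6% of all chromosome 18 genes called lower, and their median was −0.67 against −0.57 (this family was taken up after its values were seen). Pcdhgb7 was 8.28, 7.61 and 7.87 in the low-coverage lines and 11.11, 11.11, 10.56 and 11.15 in the others (−3.06, SE 0.21, adjusted p = 0.001954). Pcdhga6 was 7.78, 7.75 and 7.37 against 10.16, 9.93, 9.69 and 9.86 (−2.28, SE 0.17, adjusted p = 0.002966). Pcdhb21 (−1.89), Pcdhb16 (−1.54), Pcdhb17 (−1.22) and Pcdhb22 (−1.09) were called with adjusted p between 0.004572 and 0.009524. Another member, Pcdhga10, had one of the highest differences on the chromosome, at 9.74 to 10.28 against 8.39 to 9.97, but the groups overlapped and it was not called (0.85, adjusted p = 0.3209). The gamma genes share their last exons and the transcribed regions of Pcdhb21 and Pcdhb22 overlap, so reads could be split between them, and the value of a single member is uncertain.

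**Figure D4:**
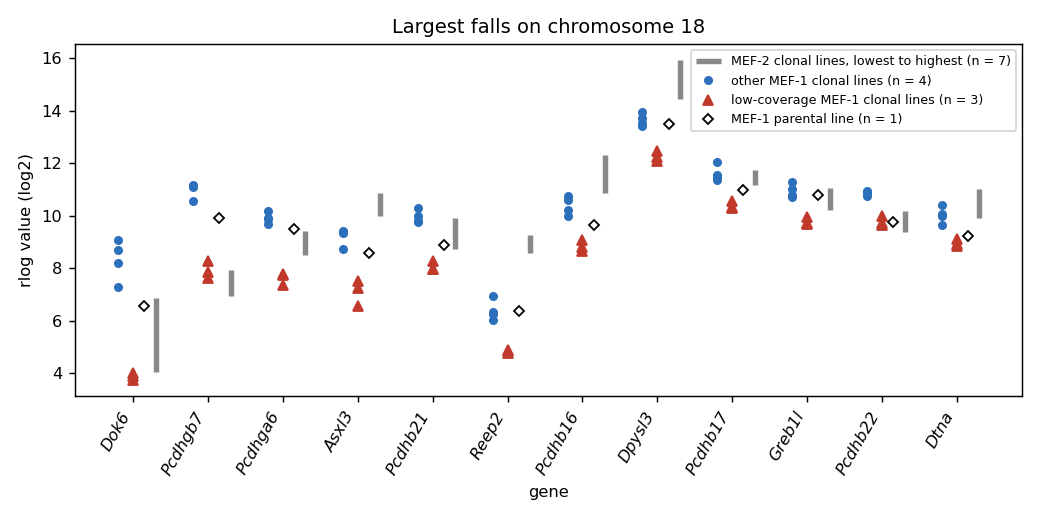
rlog values (log2) of the 12 chromosome 18 genes with the largest falls among those called without overlap, with the same symbols as the plot of genes by role. For Dok6 the low-coverage lines lie between 3.73 and 4.01 and the other MEF-1 clonal lines between 7.27 and 9.07.

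No chromosome 18 gene was called higher. Besides Pcdhga10, the highest differences above the 40th percentile were those of Lama3, a laminin chain (0.91, adjusted p = 0.4694), Ecscr, an endothelial receptor (0.63, adjusted p = 0.5098), and Slc14a1, a urea transporter (0.55, adjusted p = 0.681), and each overlapped between the groups. When the median of each chromosome was taken away from each line before the limma fit, 7 chromosome 18 genes were called, 1.68% of the 416, with 0.805% called over all genes tested. These 7 are named with their values known. Dok6 (−3.84), Pcdhgb7 (−2.48), Pcdhga6 (−1.69) and Pcdhb21 (−1.30) stayed lower, with adjusted p of 0.008211 to 0.01881. Prdm6, a transcriptional repressor of smooth muscle, was higher relative to the chromosome (1.57, adjusted p = 0.03888), and without that step was 4.24, 3.67 and 3.27 against 2.81, 2.90, 2.61 and 2.65 without passing (adjusted p = 0.09124). Eif3j2, a translation initiation factor gene with a near-identical copy elsewhere, was level between the groups before it (11.31 and 11.31) and called higher after it (0.59). Il17b stood at 0.04 to 0.06 in all 7 lines, close to the lower limit of the tested range, and was also called higher after that step (0.58). Taking away a lower median in the low-coverage lines raises every chromosome 18 gene there. The calls of Eif3j2 and Il17b, both within the 1.68%, are therefore made by the step itself.

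On the other chromosomes 83 of 14869 genes were called lower (0.558%) and 116 higher (0.78%). Across the 12756 of these genes above the 40th percentile, the correlation of rlog values between a pair of lines had a median r of 0.988 within the low-coverage lines (3 pairs), 0.987 within the other lines (6 pairs) and 0.981 between the groups (12 pairs). These are correlations across genes, which share the level of each gene, and carry no test. The calls rested on single lines: without MEF1-4 there were 20 lower and 34 higher, without MEF1-1 52 and 77, without MEF1-7 47 and 59, and without MEF1-3 62 higher. Chromosomes 3, 4, 6 and 9 were chosen by eye as those where no MEF-1 clonal line stood far from the others in DNA coverage. Of the 3295 genes tested there, 16 were called lower (0.486%) and 29 higher (0.88%), all part of the 83 and 116 above. Chromosome 6 held 6 of these lower calls and 10 of the higher ones, and its RNA medians did not overlap between the groups.

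Short lists of targets of regulators encoded on chromosome 18 were also counted. With 0.558% of all genes off the chromosome called lower and 0.78% higher, lists of this size would hold few or no calls at that share, so a count of 0 says nothing particular about them. Of 13 TGF-beta target genes 0 were called with limma (median −0.11, against 0.01 for all 14869 genes off the chromosome), and 0 of the 5 other SMAD genes (median 0.06). At an unadjusted p under 0.05 these numbers were 0 and 1, the latter Smad3. Col1a1, the main fibrillar collagen, overlapped between the groups (0.18, adjusted p = 0.9404), as did Acta2, smooth muscle actin (−0.01, adjusted p = 0.9959), and the 95% interval of the latter ran from −0.77 to 0.75. Smad3 was 14.67 to 14.73 against 14.46 to 14.64, without overlap and without passing (0.17, adjusted p = 0.3535). Of 11 Wnt target genes 0 were called (median 0.26; 1 at an unadjusted p under 0.05), with Axin2, a feedback inhibitor of the pathway, at 0.20 (adjusted p = 0.7131), Ccnd1, cyclin D1, at −0.07 (adjusted p = 0.9282) and Myc at −0.03 (adjusted p = 0.9872).

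The 4 lists of p53 targets, chaperones, proteasome subunits and interferon-stimulated genes held 0 calls by limma and 0 genes at an unadjusted p under 0.05, beside the same 0.558% and 0.78% of all genes off the chromosome. The 12 p53 targets had a median of 0.07, with Zmat3 at −0.10 and Ccng1 at −0.003 (adjusted p = 0.6726 and 0.9942), and Cdkn1a, the p21 inhibitor of the cell cycle, at 0.54 (adjusted p = 0.5312). The 14 heat shock proteins and chaperonins had a median of −0.03, with Hsp90ab1 at −0.29 (adjusted p = 0.5122) and Hspa8 at −0.13 (adjusted p = 0.7835). The 11 proteasome subunits had a median of 0.01, with Psmd1 at −0.11 and Psmd11 at 0.05, and the 10 interferon-stimulated genes one of −0.02, with Ddx58 at 0.08. The 11 cell cycle genes all lay above 0 (0.02 to 0.43, median 0.22), but 0 were called by limma (2 at an unadjusted p under 0.05). Their levels in the low-coverage lines were spread widely: Mki67, a marker of dividing cells, was 12.32 in MEF1-1, 13.11 in MEF1-4 and 14.28 in MEF1-5, against 12.72 to 13.35 in the other lines, and Top2a was 12.69, 13.49 and 14.53 against 12.90 to 13.74.

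MEF1-5 stood apart on the Y chromosome as well. Ddx3y was 10.46 in MEF1-5, and 12.37 and 12.19 in MEF1-1 and MEF1-4, with 11.53 to 12.18 in the other MEF-1 clonal lines. Kdm5d was 9.10 in MEF1-5 against 10.26 to 11.16 in the other 6 lines, Eif2s3y 8.63 against 9.97 to 10.83 and Uty 8.84 against 9.95 to 10.73. None passed between the groups (adjusted p 0.6993 to 0.8629). In the female MEF-2 clonal lines Ddx3y was 5.58 to 5.68.

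Of the 8 genes with the largest rises elsewhere, among those called without overlap, 6 were Hox genes, which encode homeodomain transcription factors that give cells their position along the body axis, and which keep in fibroblasts a record of where in the embryo the cells came from. Hoxb9 was 12.49, 12.14 and 12.87 in MEF1-1, MEF1-4 and MEF1-5. It was 6.11, 6.11, 4.34 and 4.72 in MEF1-2, MEF1-3, MEF1-6 and MEF1-7, with no overlap. The difference was 7.18 (SE 0.47, adjusted p = 0.001954), the parental line was at 10.24 and the MEF-2 clonal lines were at 3.69 to 4.31. Hoxb8 was 10.79, 9.95 and 10.61 against 6.23, 4.44, 3.61 and 3.45 (6.02, SE 0.64, adjusted p = 0.005739). Hoxb7 (4.99, adjusted p = 0.0108), Hoxb6 (4.14, adjusted p = 0.008145) and Hoxb5 (4.13, adjusted p = 0.00512) were higher in the same lines, also without overlap.

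These 5 genes lie side by side at chr11:96271457-96306121 (mm10, plus strand). Of the 9 Hoxb genes tested 5 were called higher and 0 lower (6 and 0 at an unadjusted p under 0.05), with 0.78% of all genes on these other chromosomes called higher, and the called genes are the block from Hoxb5 to Hoxb9. Hoxb2, Hoxb3 and Hoxb4, which follow Hoxb5 in the cluster, were at 8.62 to 10.38 in all 7 lines and differed by 0.13, −0.07 and −0.18 (adjusted p 0.6936 to 0.8922). Of 11 Hoxa genes 3 were called higher: Hoxa11 (4.27, adjusted p = 0.02098), Hoxa10 (3.90, adjusted p = 0.009324) and Hoxa9 (2.75, adjusted p = 0.03731). Hoxa11 was 4.94, 8.45 and 6.54 against 1.88 to 2.83, so its level within the group was spread over more than 3 units. Hoxa13 followed the same lines, at 3.08, 8.76 and 4.13 against 1.09 to 1.37, without passing (4.14, adjusted p = 0.1406), and Hoxa3 was called lower (−0.63, adjusted p = 0.01142). The count over the 21 Hox genes tested, 8 higher and 1 lower, was made after their values were seen.

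The study followed DNA methylation, which in mammals lies at CpG dinucleotides, so the start regions of a Hoxb and a Hoxa gene that were higher together are shown with each CpG in capitals. They are RefSeq sequences (GRCm38.p6) from 250 bases before to 50 bases after the gene start, Hoxb8 at chr11:96281655-96281954 on the plus strand and Hoxa11 at chr6:52245761-52246060 on the minus strand.
Hoxb8: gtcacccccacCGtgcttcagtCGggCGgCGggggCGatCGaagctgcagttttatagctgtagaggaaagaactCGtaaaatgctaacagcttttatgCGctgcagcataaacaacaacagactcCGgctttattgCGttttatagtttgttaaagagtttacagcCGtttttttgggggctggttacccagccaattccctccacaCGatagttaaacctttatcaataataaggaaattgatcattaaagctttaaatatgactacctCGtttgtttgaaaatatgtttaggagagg
Hoxa11: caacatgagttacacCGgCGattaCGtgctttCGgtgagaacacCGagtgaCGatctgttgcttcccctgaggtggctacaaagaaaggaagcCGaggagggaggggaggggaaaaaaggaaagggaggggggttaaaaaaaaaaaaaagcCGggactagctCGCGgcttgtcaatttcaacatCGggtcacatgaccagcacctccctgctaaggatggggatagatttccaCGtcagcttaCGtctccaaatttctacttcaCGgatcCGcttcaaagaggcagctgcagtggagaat
The Hoxb8 window holds 13 CpGs and the Hoxa11 window 15, and 38.5% and 35.2% of the 27025 gene start windows in the table hold as many or more. Of the 16 called genes named for the largest differences in each direction, 11 matched the table. Hoxb5, Hoxb6, Hoxb7, Hoxb9 and Malrd1 did not. Of these 11 genes, 10 had at least the median number of CpGs, which is 7 and which 52.3% of all windows reach. The 27025 windows were not limited to the 15285 genes tested, and the share among tested genes was not counted. The comparison therefore cannot set the called genes apart from other tested genes. Galnt13 and Thrb, which were both lower, hold 28 and 37.

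Besides the Hox genes, Armh4, a membrane protein, was 11.84, 12.04 and 8.44 in MEF1-1, MEF1-4 and MEF1-5 against 3.97 to 5.06 (6.27, SE 0.83, adjusted p = 0.009324), and Cpxm2, a secreted carboxypeptidase-like protein, was 12.90, 12.76 and 11.40 against 5.41 to 9.12 (5.64, SE 0.84, adjusted p = 0.01317). Of 62 potassium channel genes tested, subunits and interacting proteins included, 6 were called higher and 0 lower (13 and 4 at an unadjusted p under 0.05), with 0.78% of all genes off chromosome 18 called higher. Kcng2 and Kcnn2, which are among the 62, lie on chromosome 18 and were not called. This family was also taken up after its values were seen. Kcnk1, a channel that conducts at rest, was 8.92, 8.97 and 9.30 against 3.58 to 6.06 (4.05, adjusted p = 0.01018). Kcng3, Kcna2, Kcnd3 and Kcne4 differed by 1.42 to 2.47.

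Among the genes called lower outside chromosome 18, 2 were semaphorins, guidance cues that act through plexin receptors. Of the 20 semaphorin genes tested, taken from any chromosome, these 2 were called lower and 0 higher. The shares called lower were 1.67% of all genes tested and 0.558% of the genes off chromosome 18. This family was also taken up after its values were seen. Sema3d was 6.41, 4.69 and 5.51 in the low-coverage lines against 10.09, 9.37, 9.46 and 9.55 (−4.08, SE 0.39, adjusted p = 0.004663), and Sema6d was 4.37, 3.49 and 3.91 against 7.30, 6.48, 6.90 and 7.83 (−3.20, SE 0.36, adjusted p = 0.005919). The other 18 semaphorin genes tested were not called. Galnt13, an enzyme that starts mucin-type glycosylation, was 5.11, 4.52 and 5.98 against 8.76 to 10.00 (−4.02, SE 0.41, adjusted p = 0.005482). Thrb, the thyroid hormone receptor beta, was 4.65, 3.08 and 3.99 against 5.76 to 7.83, with the MEF-2 clonal lines at 2.43 to 2.87 (−3.11, SE 0.55, adjusted p = 0.02682). Apbb1ip (−3.18), which links Rap1 to integrins, Cpne4 (−2.79), a copine that binds membranes with calcium, Malrd1 (−2.77) and Gng2 (−2.59), a G protein gamma subunit, complete the 8 largest falls among genes called without overlap.

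**Figure D5:**
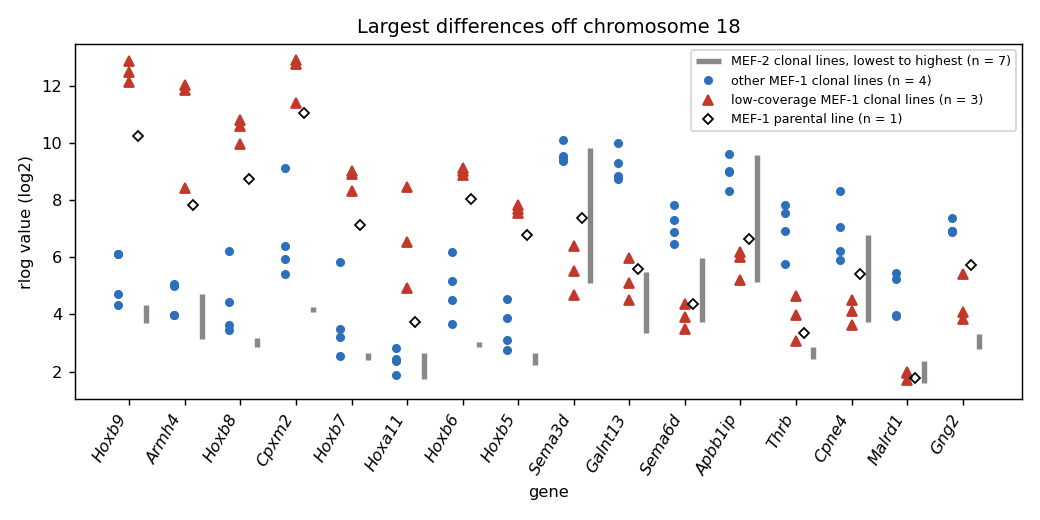
rlog values (log2) of the 8 genes with the largest differences in each direction off chromosome 18 among those called without overlap, with the same symbols as the plot of genes by role. The low-coverage lines lie above all other MEF-1 clonal lines for the first 8 genes and below them for the last 8, and for Hoxb9 they lie at 12.14 to 12.87 against 4.34 to 6.11.

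The parental MEF-1 line lay between the means of the groups for 148 of the 173 chromosome 18 genes called (85.5%), for 49 of the 83 called lower elsewhere (59.0%) and for 77 of the 116 called higher elsewhere (66.4%). Over all genes tested the share was 19.5%, where the means lie closer together than for called genes. The median of the MEF-2 clonal lines was nearer to the other MEF-1 clonal lines than to the low-coverage lines for 143 of the 173 (82.7%), 45 of the 83 (54.2%) and 96 of the 116 (82.8%), against 53.2% of all genes.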

How the data were processed

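Per the labels and the study's methods, the authors trimmed reads with Trim Galore 0.6.0, quantified them with Salmon 1.5.2 against mm10 with Ensembl release 102, and deposited 1 log2 value per gene and line, made with the rlog transformation of DESeq2 1.24.0. Read depth is unknown, and whether the transformation used the groups is not given in the sources used here. Positions and gene types came from GENCODE M21 (mm10). Every line name in the table matched a sample, and 0 were left over. The clonal lines were grouped by the DNA coverage of chromosome 18 as the study shows it; the sample labels give the line names. There was 1 library per line, so p-values measure the spread between clonal lines together with that between libraries. All 7 lines come from the MEF-1 parental line, and the fits treat them as independent. Whether some of them share a more recent ancestor cell within it was not tested.

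Protein-coding genes with a mean above 0 were fitted in limma 3.58.1 (R 4.3.3; trended prior, 3 against 4 lines) with Benjamini-Hochberg adjustment over all of them, and called at an adjusted p under 0.05. The script was tested on simulated data. Chromosome medians used genes above the 40th percentile, each line centred on autosomes 1 to 17 and 19. Genes named on chromosome 18 were the 12 largest falls among genes called without overlap and the 4 highest differences, with the 2 most abundant of each list. Elsewhere they were the 8 largest differences each way among such genes, the 2 most abundant of each list without calls, and Y-linked genes. Other named list members illustrate their lists, and some genes are not reported here. The members and lists were chosen with earlier results of these data known. Alternatives varied the filter, the prior, the lines fitted and the centring.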

Additional observations from a re-analysis of the deposited data

Results flagged for a closer look

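In 10 of 96 sets of 4 lines examined, 1 of the other MEF-1 clonal lines stood further from the rest than Dixon's 95% critical value allows, where chance alone gives about 4.8. For single genes, these were Asxl3 in MEF1-3 (8.734, low), Gng2 in MEF1-7 (7.389, high), Matr3 in MEF1-2 (14.547, low), Myc in MEF1-2 (12.081, low), Pcdhgb7 in MEF1-6 (10.562, low) and Zmat3 in MEF1-7 (13.282, low), all rlog values. For chromosome medians they were chromosome 6 in MEF1-6 (−0.071), chromosome 11 in MEF1-6 (−0.111), chromosome 14 in MEF1-2 (−0.192) and chromosome 16 in MEF1-6 (−0.18), each below the other 3 lines. The chromosome 18 medians of the same 4 lines had no such value.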

How the results depend on the processing

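The chromosome 18 median difference stayed between −0.623 and −0.574 under every other choice of genes or centring, and between −0.609 and −0.583 with 1 line left out. Chromosome 18 genes called lower numbered 152 to 214 under the other fits that kept the chromosome medians and 56 to 172 with 1 line left out, and 0 were called higher in each of these fits by limma. Without 1 line there were 20 to 104 lower and 34 to 117 higher genes on other chromosomes. Their 83 lower genes became 54 with no filter on low values, 179 with all 14 clonal lines fitted together and 50 with the chromosome medians taken away (a step chosen after seeing the data). Their 116 higher genes became 248 with all 14 lines and 66 with the chromosome medians away. Of the 83 lower and 116 higher genes, 16 and 29 lay on chromosomes 3, 4, 6 and 9. That count covers part of the same calls and is not another fit, so it says nothing on how they depend on the processing. The cause of the changes between fits was not tested. Without centring, 0 chromosomes besides 18 had groups without overlap, against 1. Among the genes named by rule, differences changed sign with 1 line left out only for some that were not called: Acta2 −0.229 to 0.28, Ccnd1 −0.214 to 0.143, Ccng1 −0.053 to 0.031, Ddx3y −0.631 to 0.322, Ddx58 −0.075 to 0.168, Eif2s3y −0.914 to 0.065, Kdm5d −0.818 to 0.105, Mki67 −0.322 to 0.657, Myc −0.355 to 0.118, Top2a −0.227 to 0.689 and Uty −0.666 to 0.283. Of the 46 called genes named, 23 did not pass without MEF1-4. No paired analysis was possible because the clone numbers of the groups, 1, 4 and 5 against 2, 3, 6 and 7, share none. The design of 3 against 4 lines, with unknown depth and values shrunken at low levels, limits what can be called.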
